A study of Mus musculus with 16 samples.

Results

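To follow the Lcn2-/- minus wild-type (WT) difference along the chromosome that carries the targeted gene, the probes of chromosome 2 were read on 16 expression arrays of mouse liver. A member is a 60-base probe placed on chromosome 2 of the mm9 build, outside the A_30_P probe series and not named for Lcn2 or Adamts13, that was well above background on at least 3 of the 16 arrays. Of the 4232 chromosome 2 probes on the array, 3183 were eligible by position and name, 1103 of these were on fewer than 3 arrays, 12 had no unmarked spot on some array, and 2068 were members, out of 33014 probes tested over the whole genome. The members carry 1621 gene names, of which 1253 have 1 member probe and 368 have several. They lie between 3.14 and 181.7 Mb, and 1655 of them were well above background on all 16 arrays. The 55 members on exactly 3 arrays had a median log2 level of 4.30, against 3.60 for the 98 eligible probes on exactly 2 arrays and 9.79 for all members.

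The animals were male BALB/c mice, 6 to 8 weeks old, WT or Lcn2-/-. CCl4, a solvent turned into a radical in the liver, was given in corn oil by intraperitoneal injection at 0.5 ml/kg, 2 times a week over 4 weeks, and livers were collected 48 h after the final dose, while control mice received corn oil. WT livers filled 9 arrays, 4 of controls and 5 after CCl4, and Lcn2-/- livers 7, 3 of controls and 4 after CCl4. The Lcn2-/- line was made on a mixed 129/Ola and C57BL/6 background and then repeatedly backcrossed to BALB/c, so a mutant animal may still carry donor DNA linked to the locus. Bulk liver RNA was measured, in which fewer cells of a type and less RNA per cell cannot be told apart.

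Lcn2 encodes lipocalin 2, a secreted protein that binds iron-loaded siderophores and is produced by the inflamed liver. When a gene is targeted in cells of a donor strain and the mutation is crossed into another strain, the donor chromosome around the target is inherited with it, and recombination shortens that stretch over the generations. Inbred strains differ in regulatory sequence and in the bases a probe pairs with, and either can change an array signal. Chromosome 2 of the mouse holds a large cluster of olfactory receptor genes, a family of odorant receptors of the nose whose members resemble each other closely, and zinc finger gene clusters near its distal end. Donor DNA, a base difference under a probe and the loss of lipocalin 2 cannot be told apart in these groups.

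Several probes for olfactory receptors were well above background on Lcn2-/- arrays alone, and the sequences of these probes are given below. All are 60-base probe sequences from the array files, 5′ to 3′, with mm9 positions and strand. Capitals mark the bases that differ from the most similar probe of another gene on the array, in the best ungapped alignment over at least 40 bases. For Olfr1033 (chr2:85882347-85882406, plus) that probe belongs to Olfr1032 and shares 50 of 60 bases. For the second Olfr1036 probe (chr2:85915771-85915830, plus) it belongs to Olfr1031 and shares 34 of 47, for Olfr1052 (chr2:86138819-86138878, plus) to LOC100044200 and shares 35 of 43, and for Olfr1317 (chr2:111982940-111982999, plus) to Olfr1310 and shares 39 of 46. The first Olfr1036 probe (chr2:85915196-85915255, plus) has no such match over 70% identity and is printed in lower case throughout.
Olfr1033: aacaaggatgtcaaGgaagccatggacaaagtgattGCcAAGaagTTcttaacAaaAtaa
Olfr1036, first probe: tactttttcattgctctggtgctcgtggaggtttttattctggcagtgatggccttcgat
Olfr1036, second probe: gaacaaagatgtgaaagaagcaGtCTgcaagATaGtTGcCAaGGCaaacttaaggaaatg
Olfr1052: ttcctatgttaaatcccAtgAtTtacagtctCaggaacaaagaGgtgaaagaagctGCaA
Olfr1317: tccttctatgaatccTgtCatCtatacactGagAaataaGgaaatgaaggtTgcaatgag

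Of the members with a difference in both treatments, 4930578N16Rik and Mmp24 are shown as well, because their probes lost signal in Lcn2-/- livers. The 4930578N16Rik probe (chr2:69610063-69610122, minus; Ccdc173 in RefSeq) and the Mmp24 probe (chr2:155641710-155641769, plus) have no match of another gene over 70% identity either and are printed in lower case.
4930578N16Rik: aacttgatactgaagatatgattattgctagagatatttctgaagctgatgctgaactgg
Mmp24: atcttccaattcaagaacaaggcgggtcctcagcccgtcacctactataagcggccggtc

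Levels below are log2 of the processed signal after quantile normalization, and differences are Lcn2-/- minus WT on that scale unless another contrast is named. A member is called where limma, fitted on all 33014 probes, gave an adjusted p under 0.05 after Benjamini-Hochberg. The members were chosen to be read along these same genotype contrasts, so the genotype values and counts are a description and carry no test. They were chosen by position, by name and by being well above background, with the genotype differences in view.

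The share of spots well above background was 51.6% to 60.9%, and arrays of a group correlated at r = 0.971 to 0.991 across probes. The Lcn2 probe itself (chr2:32240199-32240258, minus) read 13.80 to 17.57 on the WT control arrays and 14.22 to 16.49 on the WT CCl4 arrays, against 10.46 to 11.53 and 10.60 to 12.25 on the Lcn2-/- arrays, so each array went with its label. All 8 hepatocyte markers were detected, with a summed log2 level of 21.4 to 21.7 in every group. Of 53 markers of the liver's cell types and of pancreas and fat, 45 were detected and none was called by genotype. Adgre1, Cd79a, Pnlip, Cpa1, Try4, Adipoq, Lep and Plin1 had no probe among those tested. On each slide the WT arrays filled the upper row and the Lcn2-/- arrays the lower row, except that WT CCl4 1 lay in the lower row of the slide of the controls, so row and genotype cannot be told apart beyond that array.

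In controls 21 members (1.02%) were called by genotype, 14 higher and 7 lower in Lcn2-/- livers, where 0.485% of all probes tested were called. Of all probes, 0.206% were called higher and 0.279% lower. The balance of higher and lower members moved with the fit. With array weights it was 61 and 62, of 123 members called (5.95%, against 4.22% of all probes). Without both control arrays numbered 3, an alternative chosen after seeing the data, it was 8 and 9 (0.822%, against 0.542%). Under CCl4 28 members (1.35%) were called, 20 higher and 8 lower, where the share over all probes was 0.524%, 0.264% higher and 0.26% lower. With the replicate number as a block, same-numbered WT and Lcn2-/- arrays were paired within each treatment. WT control 4 and WT CCl4 5 had no partner there. Same-numbered arrays deviated together in controls and not under CCl4, as given below. The counts were 10 in controls (0.484%, against 0.221% of all probes in that fit) and 17 under CCl4 (0.822%, against 0.421%). All control arrays lay on 1 slide, and within the slide that held only CCl4 arrays, that is without WT CCl4 1, 24 members were called (1.16%, against 0.485%). Genotype groups did not overlap for 258 members (12.5%) in controls and 156 (7.54%) under CCl4, against 9.47% and 5.32% of all probes. They did not overlap in the same direction in both treatments for 59 members (2.85%), against 1.16% of all probes.

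Both comparisons called 16 members (0.774%) of 15 genes, 11 higher and 5 lower, where 0.221% of all probes were called in both. The 16 make up 76.2% of the calls in controls and 57.1% of the calls under CCl4, and all had the same sign. Over all probes 73 were called in both, of 160 called in controls and 173 under CCl4. With the replicate block 7 of the 16 stayed called in both, and the control call was lost for Adamtsl2, Coq4, Tbc1d13, Pdk1, Fam171b, the first Olfr1036 probe, Ptpmt1, Ralgapa2 and Mmp24. With any 1 array left out, 9 of the 16 stayed called in both. Of the 16 such fits, the control call was lost in 12 for Fam171b, 11 for Coq4 and 10 for Mmp24. It was lost in 9 for Ptpmt1, 5 for Tbc1d13, and 1 each for E030042O20Rik and Ralgapa2. The 2 comparisons share no array, but 1 model over the 4 groups gave both the same estimate of a probe's spread. Over the 2068 members the differences correlated at r = 0.66 (Spearman 0.56), over the members called in neither at r = 0.60, and over all probes at r = 0.55, as a description over probes of the same arrays. The median difference of the members was -0.02 in controls and 0.00 under CCl4, beside -0.01 and 0.00 over all probes, and the median absolute difference was 0.16 and 0.19, the same as over all probes. The calls thus rested on few members, while the middle of the chromosome's distribution lay where that of all probes lay. Chromosome 2 ranked second of 20 chromosomes by the share called in each comparison and in both, behind chromosome 5, where 29 of 1611 probes (1.8%) were called in controls, 34 (2.11%) under CCl4 and 23 (1.43%) in both.

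**Figure D1:**
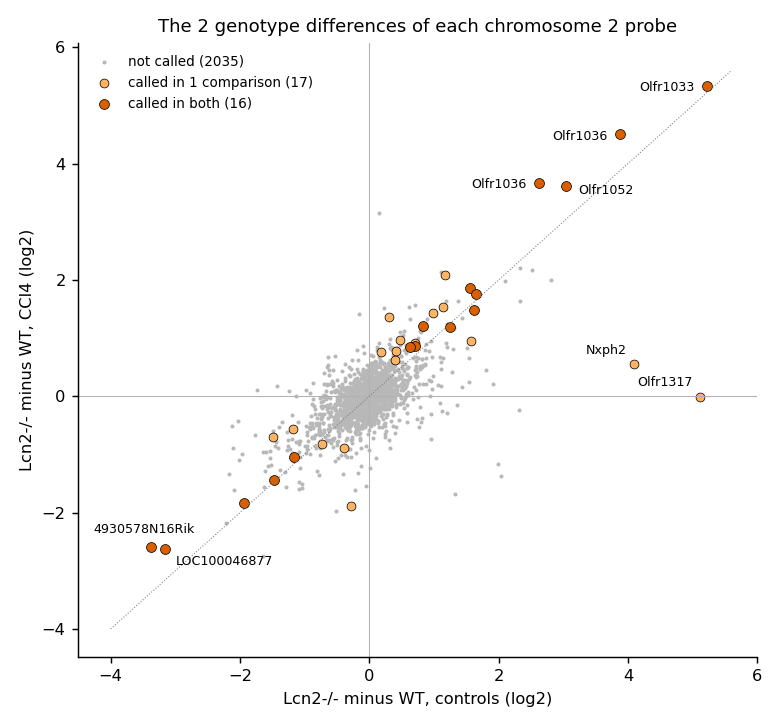
Difference Lcn2-/- minus WT of each of the 2068 members in controls (x axis, log2) against the same under CCl4 (y axis, log2). Points are probes, those called in both, in 1 or in no comparison are marked apart, and the 16 called in both lie in the quadrants of equal sign while Nxph2 and Olfr1317 lie far to the right near 0 or little above it on the y axis.

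By distance from Lcn2, the share of members called was highest at 35 to 65 Mb, at 3.63% in each comparison. The Lcn2 probe and the 2 Adamts13 probes, about 5.4 Mb away, were called in both comparisons but are not members. Within 1 Mb of the Lcn2 probe lay 62 members of 49 genes, and limma called 0 of them in either comparison. Of all probes 0.485% were called in controls and 0.524% under CCl4. A count of 0 among 62 lies near that share and is read no further. An unadjusted p under 0.05 was reached by 4 of the 62 in controls and 10 under CCl4. Over all probes 8.19% in controls and 12.7% under CCl4 reached that p, and over all members 11.9% and 15.5%. Their differences ran from -0.98 to 1.92 in controls, with a median of 0.01, and from -0.99 to 1.57 under CCl4, with a median of 0.00. No member in this window had genotype groups that stayed apart in the same direction in both treatments. The nearest called members on one side belonged to Ccbl1 and Tbc1d13, about 2.2 Mb away. On the other side the nearest was 4930578N16Rik, at 37.4 Mb.

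Read in 5 Mb bins, 16 of the 37 bins with a member held a call in either comparison and 10 held a probe called in both. With 10 Mb bins it was 8 of 19, and with 2 Mb bins 14 of 88. In the 34 bins of at least 20 members, the bin median ran from -0.11 to 0.25 in controls and from -0.22 to 0.17 under CCl4. The calls fell into 3 stretches, drawn after the values were seen as runs of at least 3 called probes with no gap over 7 Mb, and given no test for that reason. Of all probes tested, 0.788% were called in either comparison. From 23 to 31 Mb, 6 of 238 members (2.52%) were called in either comparison. From 69 to 91 Mb, 12 of 230 (5.22%) were called, 10 of them in both. From 145 to 165 Mb, 12 of 374 (3.21%) were called, 3 of them in both and most under CCl4, where 11 were called against 4 in controls. Between 31 and 69 Mb limma called 0 of 273 members, with 19 in controls and 32 under CCl4 at an unadjusted p under 0.05. Before 23 Mb 1 of 135 members was called, between 91 and 145 Mb 1 of 576, and beyond 165 Mb 1 of 242.

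**Figure D2:**
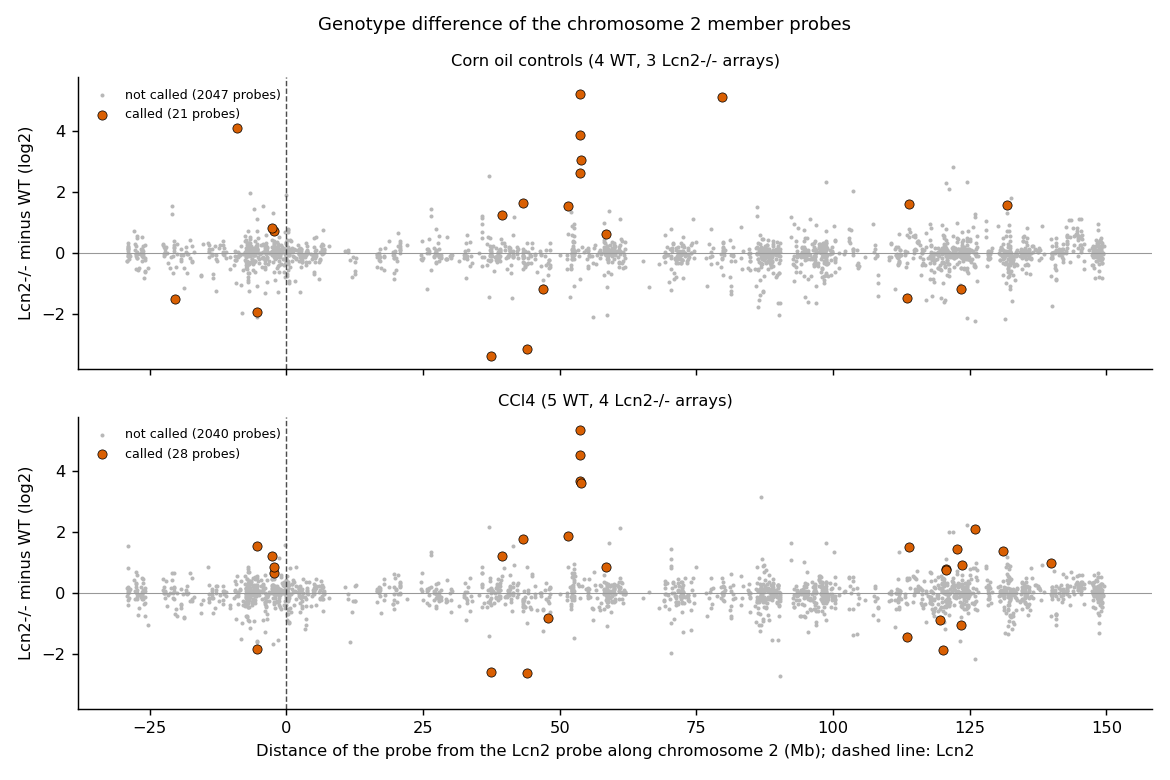
Difference Lcn2-/- minus WT (y axis, log2) of each member against its distance in Mb from the Lcn2 probe (x axis, 0 at Lcn2), controls and CCl4 in separate panels. Called probes are marked, none lies within 1 Mb of Lcn2, and the olfactory receptor probes 53.6 to 53.9 Mb away are high in both panels, whereas Nxph2 and Olfr1317 are high in controls alone.

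**Figure D3:**
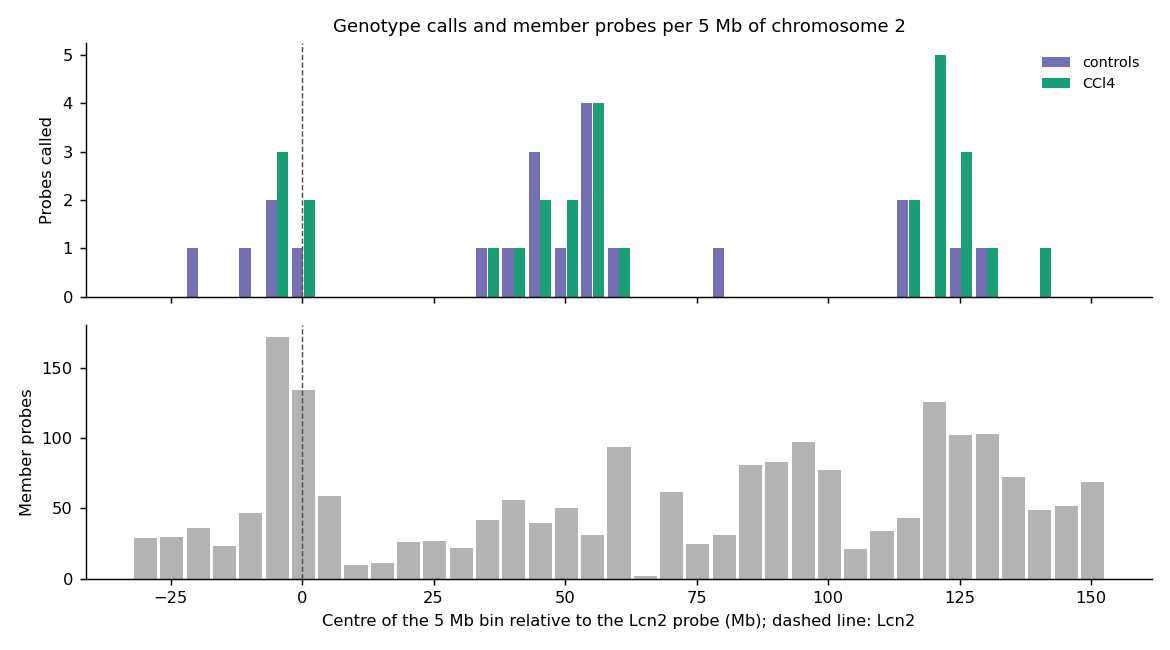
Number of members called in each 5 Mb bin for controls and CCl4 (upper panel, y axis) and number of members in the bin (lower panel, y axis) against the distance in Mb of the bin's centre from the Lcn2 probe (x axis, dashed line at Lcn2). The bars cluster in 3 groups, one next to Lcn2 and 2 farther out, and the bins in between hold few or no calls.

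The 23 to 31 Mb stretch, on one side of Lcn2, held 3 probes called in both treatments. Adamtsl2, a secreted glycoprotein of the extracellular matrix, read 8.38, 7.54, 8.30 and 8.45 in WT controls and 6.22, 6.38 and 6.08 in Lcn2-/- controls. Under CCl4 it read 10.14, 10.01, 9.85, 9.50 and 9.46 in WT and 7.71, 8.35, 8.28 and 7.52 in Lcn2-/- livers. The genotypes did not overlap in either treatment, and the difference was -1.94 ± 0.26 (SE) in controls and -1.83 ± 0.23 under CCl4. Adamtsl2 was also raised by CCl4 within each genotype, by 1.62 in WT livers (adjusted p from limma 0.00025) and 1.74 in Lcn2-/- livers (0.00069), while the genotypes stayed apart.

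Coq4, a protein of ubiquinone synthesis in mitochondria, read 11.52, 11.73, 11.39 and 11.50 in WT controls and 12.41, 12.43 and 12.27 in Lcn2-/- controls. Under CCl4 its levels were 11.50, 11.49, 11.46, 11.61 and 12.10 in WT and 12.80, 12.79, 12.61 and 13.14 in Lcn2-/- livers. The Lcn2-/- arrays were higher throughout, by 0.84 ± 0.17 and 1.20 ± 0.15. Tbc1d13, a GTPase-activating protein for Rab proteins, read 10.49, 10.44, 10.41 and 10.40 against 11.07, 11.20 and 11.17 in controls. After CCl4 the levels were 10.25, 10.58, 10.09, 10.47 and 10.49 against 11.18, 11.08, 11.26 and 11.43. The difference was 0.71 ± 0.13 and 0.86 ± 0.11, small in size and clear of the spread of either genotype. Ccbl1 (Kyat1 in RefSeq), an enzyme that cleaves cysteine conjugates and makes kynurenic acid, was called under CCl4 alone, where it was higher by 0.63. Its second probe had the same sign. Gm711 (Stkld1 in RefSeq) was called under CCl4 alone as well, higher by 1.53, with levels of 5.42 to 6.48 in WT and 7.36 to 8.14 in Lcn2-/- livers.

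Of the 16 members called in both treatments, 10 lay from 69 to 91 Mb, and the largest differences of the 16 were among them. 4930578N16Rik, a coiled-coil protein by its RefSeq name, read 6.38, 6.32, 6.63 and 6.45 in WT controls and 3.23, 3.09 and 2.92 in Lcn2-/- controls. With CCl4 these were 6.49, 6.78, 6.91, 6.73 and 7.24 in WT and 3.64, 3.65, 4.44 and 5.19 in Lcn2-/- livers. It was well above background on all 9 WT arrays and on none of the 7 Lcn2-/- arrays, so the signal was at least 1.90-fold lower in controls and at least 2.87-fold lower under CCl4. Here and below, such a bound sets the brighter group's mean against the lowest signal well above background on each dim array, or the probe's own signal where that is higher. The LOC100046877 probe, described on the array as similar to an RNA-binding protein, read 11.97, 11.96, 11.77 and 11.75 in WT controls and 8.68, 8.76 and 8.68 in Lcn2-/- controls. Under CCl4 its levels were 11.67, 11.74, 11.93, 11.77 and 10.63 in WT and 9.01, 8.87, 8.94 and 8.85 in Lcn2-/- livers. It was bright on every array, and the Lcn2-/- arrays lay lower by -3.16 ± 0.23 and -2.63 ± 0.20 on the log2 scale.

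Pdk1, a kinase that switches off pyruvate dehydrogenase, read 11.19, 11.30, 11.17 and 11.45 in WT controls and 12.60, 12.27 and 12.68 in Lcn2-/- controls. Under CCl4 the arrays gave 11.99, 11.31, 11.24, 11.54 and 11.48 in WT and 12.59, 13.02, 12.63 and 12.58 in Lcn2-/- livers. The difference was 1.24 ± 0.18 in controls and 1.20 ± 0.16 under CCl4, with no overlap. Fam171b, which encodes a membrane protein, lay between 7.01 and 7.33 in WT controls and between 8.03 and 9.43 in Lcn2-/- controls. Its CCl4 ranges were 7.03 to 8.19 and 8.97 to 9.76, and the differences 1.56 ± 0.32 and 1.87 ± 0.28, of which the control call was lost in 12 of the 16 fits that left out 1 array. Ptpmt1, a mitochondrial phosphatase of cardiolipin synthesis, read 15.34, 15.28, 15.23 and 15.18 in WT controls and 16.03, 15.73 and 15.89 in Lcn2-/- controls. After CCl4 it read 15.02, 15.04, 15.28, 15.29 and 15.35 in WT and 15.88, 16.04, 16.24 and 16.01 in Lcn2-/- livers. Its difference was 0.62 ± 0.12 in controls and 0.85 ± 0.11 under CCl4, with no overlap. E030042O20Rik was well above background on 3 arrays, all Lcn2-/- CCl4, and became a member only through them. It lay between 2.94 and 3.69 in WT and 4.55 and 5.35 in Lcn2-/- controls, and between 2.93 and 3.93 and 5.24 and 5.82 under CCl4, levels that allow no fold in controls and make it at least 1.58-fold higher under CCl4. Cerkl, a homologue of ceramide kinase, was called in controls alone, lower by -1.18, a call lost with the replicate block, with normexp and in 4 of the 16 fits that left out 1 array (adjusted p from limma up to 0.12). Dnajc10, a chaperone of the endoplasmic reticulum that reduces disulphides, was called under CCl4 alone, lower by -0.83.

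The probes of Olfr1033, Olfr1036 and Olfr1052, 4 of the 19 olfactory receptor probes in their interval, were brighter on Lcn2-/- arrays and dark on WT arrays. Olfr1033 read 3.67, 2.93, 3.12 and 2.94 in WT controls and 8.74, 7.86 and 8.60 in Lcn2-/- controls. In CCl4 livers it read 3.66, 2.92, 3.14, 3.03 and 3.50 in WT and 8.65, 8.78, 9.08 and 7.83 in Lcn2-/- livers. It was well above background on all 7 Lcn2-/- arrays and on no WT array, which puts it at least 9.74-fold higher in controls and at least 14.1-fold higher under CCl4. The second Olfr1036 probe read 2.93, 2.93, 2.93 and 2.95 against 7.03, 6.26 and 7.16 in controls. Under CCl4 the readings were 5.25, 2.92, 2.92, 2.92 and 2.92 against 7.98, 8.01, 8.27 and 7.26. The one raised WT value, on WT CCl4 1, was not well above background and lay below every Lcn2-/- array. The bounds were at least 3.26-fold and at least 8.61-fold higher. The first Olfr1036 probe, which reads another part of the gene, was well above background on 6 of the 7 Lcn2-/- arrays, at least 1.49-fold and at least 4.26-fold higher. Olfr1052 read 2.91, 2.92, 2.92 and 2.93 against 5.77, 5.91 and 6.19 in controls, and 2.92, 2.90, 2.90, 2.91 and 2.91 against 6.50, 6.42, 6.89 and 6.26 under CCl4. It was at least 1.80-fold and at least 3.37-fold higher, again on all Lcn2-/- arrays and no WT array.

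Since olfactory receptors resemble each other, the neighbours of these probes were read too. From Olfr1033 to Olfr1052 the array carries 19 probes of 17 olfactory receptor genes, of which 5 are members. The fifth member, Olfr1043, read 4.06 to 5.93 in WT and 2.90 to 5.00 in Lcn2-/- livers and was not called. Of the 14 probes that are not members, 12 were well above background on no array, and in 0 of the 14 did the genotypes stay apart over both treatments. In controls alone the genotypes stayed apart in 5 of the 14, with Lcn2-/- arrays above WT for Olfr1040 and Olfr1042 and below for Olfr1038, Olfr1046 and 1 Olfr1037 probe, all well above background on no array, and under CCl4 in 0. Of the probes tested, which exclude these 14, 9.47% stayed apart in controls and 5.32% under CCl4. In both treatments and the same direction it was 1.16%. At such dim levels the counts are read no further. Of the nearest probes in sequence, that of Olfr1032 was dim, though its genotypes lay apart. It read 2.93 to 3.24 in WT and 3.99 to 5.42 in Lcn2-/- livers and was well above background on 1 Lcn2-/- array, while those of Olfr1031 and LOC100044200 were so on 0 arrays. The nearest to Olfr1317, that of Olfr1310, was well above background on Lcn2-/- CCl4 3 alone, at 6.78. Of the 16 probes of other genes at 75% identity or more to the Olfr1052 probe 12 were so on no array, and of the 7 to the Olfr1317 probe 6, and no probe of either set had its genotypes apart. The Olfr1033 and second Olfr1036 probes share 39 of 59 aligned bases (66.1%) with each other, and the gene that a signal in this family comes from is uncertain. Called members did not stand out in base content, with a median GC of 43.3% over the 33 called in either comparison and 41.7% over all members.

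**Figure D4:**
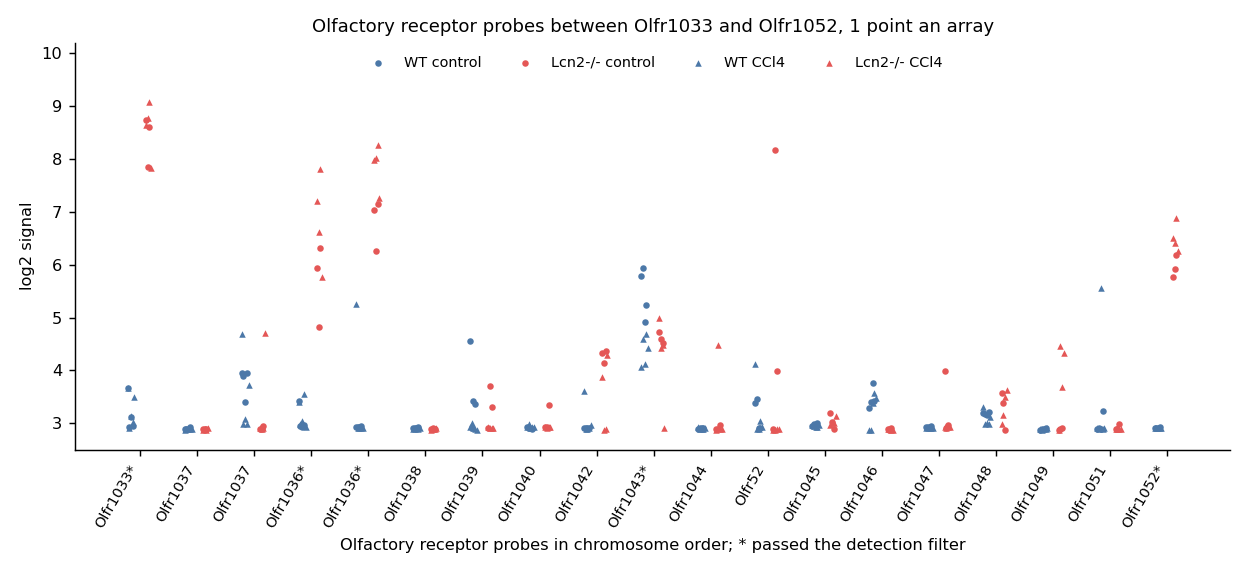
Log2 level (y axis) of the 19 olfactory receptor probes from Olfr1033 to Olfr1052 in order along the chromosome (x axis), with 1 point for each of the 16 arrays coloured by genotype and shaped by treatment. Only the probes of Olfr1033, Olfr1036 and Olfr1052 have every Lcn2-/- array above every WT array.

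The third stretch, 145 to 165 Mb, began with Crnkl1, 113.5 Mb from Lcn2. Crnkl1, a component of the spliceosome, read 8.72, 8.50, 8.62 and 8.63 in WT controls and 7.33, 7.01 and 7.09 in Lcn2-/- controls. With CCl4 it read 8.46, 8.45, 8.43, 8.43 and 8.77 in WT and 6.74, 6.87, 7.06 and 7.62 in Lcn2-/- livers. The difference was -1.47 ± 0.18 and -1.44 ± 0.16, nearly equal in both treatments. Ralgapa2, a subunit of a complex that switches off Ral GTPases, read 6.39, 7.13, 6.14 and 6.56 against 8.40, 8.07 and 8.04 in controls. In CCl4 livers the levels were 6.41, 6.70, 7.49, 7.28 and 7.40 against 8.55, 8.32, 8.48 and 8.84. Its called probe was higher by 1.62 ± 0.27 and 1.49 ± 0.24, while its other 2 member probes, on a scale of their own, were higher by 0.52 to 0.79 in controls and 0.46 to 0.49 under CCl4 and were not called. Mmp24, a membrane-bound matrix metalloproteinase, read 5.72, 6.58, 5.83 and 6.44 against 4.98, 5.09 and 4.86 in controls and 5.44, 6.06, 5.93, 5.76 and 5.85 against 5.18, 4.38, 4.65 and 4.84 under CCl4. It was well above background on all WT arrays and on 1 Lcn2-/- array, at least 1.54-fold lower in controls and differing by -1.05 ± 0.20 under CCl4.

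Other members of this stretch were called in 1 comparison. Over the chromosome 17 members were, and 5 of these calls, at Nxph2, Olfr1317, Gm711, Ahcy and 1 BC020535 probe, stayed with any 1 array left out, of which those of Gm711, Ahcy and BC020535 were lost with the replicate block. Ahcy, the enzyme that breaks down S-adenosylhomocysteine, read 15.27, 15.14, 14.79 and 15.02 in WT controls and 16.23, 15.32 and 16.58 in Lcn2-/- controls. After CCl4 the arrays gave 14.56, 14.55, 14.89, 15.09 and 14.90 against 16.35, 16.09, 16.40 and 16.10, higher by 1.43 and called there. The other Ahcy member probes were not called, and their genotypes overlapped under CCl4. They read 12.13 to 13.83 in WT against 12.38 to 14.29, and 11.48 to 12.94 against 11.53 to 13.63. BC020535 (Ccm2l in RefSeq) was called under CCl4 at 2 of its 3 probes, higher by 0.78 and 0.76, which makes it, with Olfr1036, 1 of 2 genes with several probes called. Snhg11, a non-coding host gene of small nucleolar RNA, was higher by 2.08 under CCl4. 0610008F07Rik (Hnf4aos in RefSeq, transcribed opposite Hnf4a) was higher by 1.37. Cpne1, a calcium-dependent phospholipid-binding protein, was higher by 0.91 while the beta-defensin Defb22 was called lower with 3 of 5 WT and 0 of 4 Lcn2-/- CCl4 arrays well above background, levels that allow no fold, a call lost in 14 of the 16 fits that left out 1 array and in 6 of 9 other alternatives. Wfdc15b, a small protein of the whey acidic protein family, was called in controls alone, higher by 1.58, and was lost in 14 of the 16 fits and with the replicate block. It was itself raised by CCl4, by 2.55 in WT (adjusted p = 4.4e-05) and 1.93 in Lcn2-/- livers (adjusted p = 0.0016). Fam110a was lower by -0.89 under CCl4 at 1 probe, and its other probe differed in sign, at 0.12 in controls and 0.16 under CCl4. Of the 9 called genes with several member probes, this was the exception, and in the other 8 all probes had the same sign. No gene had called member probes of opposite direction. Beyond 165 Mb Mc3r, a melanocortin receptor, was higher by 0.97 under CCl4.

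**Figure D5:**
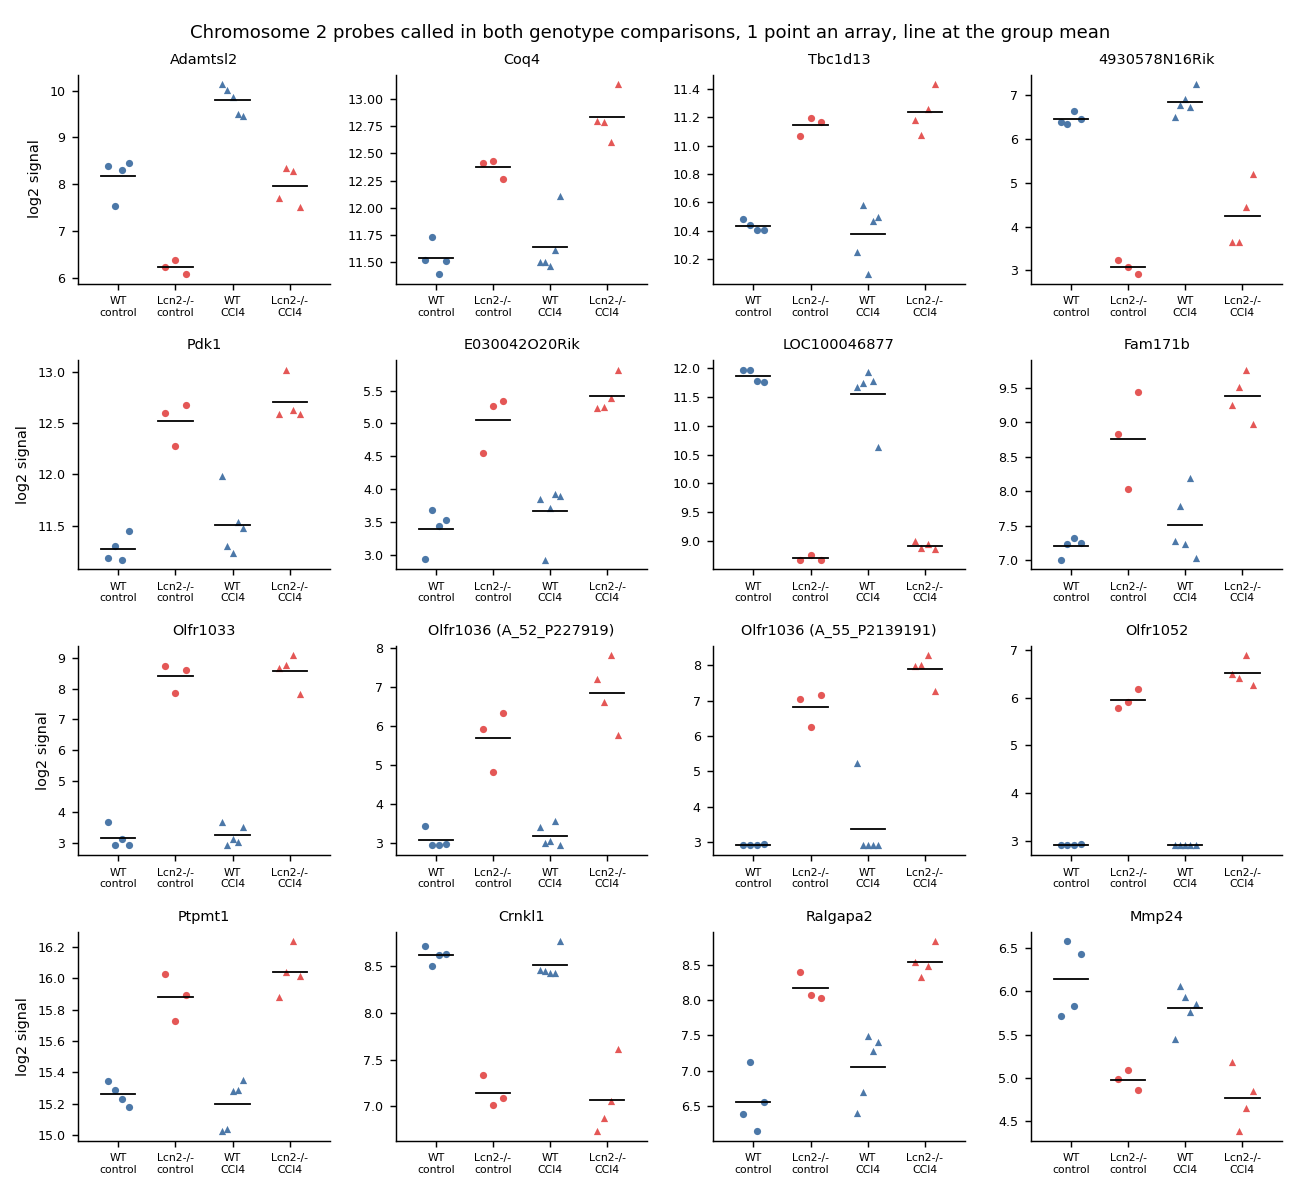
Log2 level (y axis) of the 16 probes called in both comparisons on each of the 16 arrays, 1 panel per probe, with arrays grouped by genotype within control and CCl4 livers (x axis) and bars at group means. In every panel the WT and Lcn2-/- points are apart in both treatments, as the choice of probes required, and WT CCl4 1 lies up to 0.47 of the way from the other WT CCl4 arrays to the Lcn2-/- mean.

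The 16 probes called in both were chosen with WT CCl4 1, the WT array in the lower row of a slide, counted as WT, so its place is a description and does not bear on row against genotype. On a scale where 0 is the mean of the other WT CCl4 arrays and 1 the mean of the Lcn2-/- CCl4 arrays, WT CCl4 1 lay between -0.61 and 0.47 over the 16 probes called in both, with a median of 0.02, and within the range of the other 8 WT arrays for 11 of the 16. The 2 members with a called interaction, the Lcn2-/- CCl4 response minus the WT response, both sit in the top 4 of the 384 rows of spots. Of all probes tested, 0.0333% were called for the interaction, 0.0121% higher and 0.0212% lower in the Lcn2-/- response, which came to 0.334% in the top 20 rows (6 of 1794) and 0.016% elsewhere (5 of 31220). Of the 102 members in these rows, 4 were called in either genotype comparison. The share of all probes called by genotype was 0.948% in these rows and 0.458% elsewhere in controls, and 0.446% and 0.529% under CCl4. The part of this position in the 2 results was not tested.

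Nxph2, a secreted neurexophilin of the nervous system, read 7.63, 6.33 and 7.06 in Lcn2-/- controls and 2.86, 3.27, 4.72 and 2.92 in Lcn2-/- CCl4 livers. Its WT arrays lay between 2.88 and 2.93 in both treatments. Olfr1317 read 7.94, 7.73 and 8.41 in Lcn2-/- controls and 2.86, 2.89, 2.87 and 2.92 in Lcn2-/- CCl4 livers, with WT arrays between 2.88 and 2.93. Both probes were well above background on the 3 Lcn2-/- control arrays alone, so that CCl4 livers of this genotype lay at least 3.25-fold and at least 6.59-fold lower. Each became a member only through those arrays, so its interaction is a description with no test, and the fit without the top 20 rows holds neither. In sequence the Olfr1317 probe shares 57.6% of aligned bases with that of Olfr1052.

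The remaining member that separated the genotypes by detection was Barhl1, a homeobox transcription factor, well above background on all WT arrays and on no Lcn2-/- array. Its group means were 6.18 and 5.22 in controls and 5.71 and 4.85 under CCl4, at least 1.58-fold and at least 1.28-fold lower. Neither difference was called, and under CCl4 the groups overlapped, at 4.90 to 6.32 in WT and 3.75 to 5.50 in Lcn2-/- livers. No WT array was well above background for 12 members and no Lcn2-/- array for 73, over 9 WT and 7 Lcn2-/- arrays. Over all spots, 54.2% to 56.6% were well above background on WT and 51.6% to 52.4% on Lcn2-/- control arrays. Under CCl4 it was 54.6% to 60.9% and 52.3% to 55.9%. The same count over all probes was not made, so the 12 and 73 are read no further. Gm7169 was called in controls alone, though not with the replicate block, at 4.28 to 5.29 in WT and 2.96 to 3.65 in Lcn2-/- livers, with 0 control arrays well above background.

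At the distal end a group of members moved together in controls by less than a call. From 175 to 178 Mb lay 33 members of 27 gene names, 14 of the probes described as zinc finger genes, a family of DNA-binding proteins in tandem clusters. The difference was above 0 for 31 of the 33 in controls and 28 under CCl4, with medians of 0.51 and 0.20. Genotype groups did not overlap for 22 of the 33 in controls (66.7%, against 9.47% of all probes) and for 1 under CCl4 (3.03%, against 5.32%). The 1 under CCl4, ENSMUST00000122218, lay lower in Lcn2-/- livers, at levels that allow no fold. It was well above background on 3 arrays, all WT CCl4. limma called 0 of them, with 22 in controls and 6 under CCl4 at an unadjusted p under 0.05, where all probes gave 8.19% and 12.7%. The median level over the 33 was 9.68 to 10.10 on WT control arrays and 10.21 to 10.42 on Lcn2-/- control arrays, and under CCl4 it was 9.95 to 10.30 and 10.03 to 10.59, which overlap. These probes are not independent readings, since 19 of the 33 (57.6%) share a run of 20 bases with a probe of another gene, against 6.73% of the other members. The 88 members beyond 178 Mb had medians of 0.01 and 0.02.

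Against these differences between genotypes, the CCl4 response of the members was read with its test. CCl4 changed 275 members in WT livers (13.3%, against 15% of all probes), 144 higher and 131 lower (7.34% and 7.65% of all probes). In Lcn2-/- livers it changed 229 (11.1%, against 11.1%), 133 higher and 96 lower (6.16% and 4.93% of all probes). Members detected in CCl4 livers alone made 24 of the WT and 20 of the Lcn2-/- calls, and those detected in controls alone 4 and 5. Such members entered only through the treatment where they were seen. Their calls are a description, and the balance of higher and lower is read no further. Higher calls made up 52.4% and 58.1% of the 275 and 229, but 33.7% and 39.5% when arrays were scaled to their 75th percentile instead. That scaling moved the median response of all probes from -0.03 to -0.17 in WT and from -0.02 to -0.15 in Lcn2-/- livers. It turned none of the 24 responses named by rank below. Both responses called 167 members (8.08%, against 7.83%), all in the same direction, which is 60.7% of the WT and 72.9% of the Lcn2-/- list. Apart from WT CCl4 1 the control and CCl4 arrays lay on different slides, and with slide as a block 88 and 32 members were called (4.26% and 1.55%, against 4.52% and 1.59% of all probes in that fit). That block ended 8 of the 24 responses named by rank. They were those of Ccdc3 in both genotypes, of Meig1 in WT livers, and of Lcn13, LOC100048172, Pak7, Gpr176 and Prrx2 in Lcn2-/- livers. The other named responses, and the counts of the gene lists, were not read with that block or with the 75th percentile scaling. Of the 16 probes called by genotype in both treatments, 3 were called for a response, those of Adamtsl2, 4930578N16Rik and Olfr1052. The last 2 were called in Lcn2-/- livers, where Olfr1052 rose by 0.56 (limma adjusted p = 0.017) and no array was well above background for 4930578N16Rik.

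The largest fall in WT livers was that of Slc1a2, a glutamate transporter that marks hepatocytes around the central vein. Its brightest probe read 13.53 to 14.01 in WT controls and 13.41 to 13.61 in Lcn2-/- controls, and 5.96 to 8.42 and 7.55 to 9.40 under CCl4. In WT livers it fell by 6.44 (adjusted p from limma 1e-06) and in Lcn2-/- livers by 4.86 (adjusted p from limma 3.6e-05), and both other probes fell too. LOC100048172 fell at least 10.5-fold in WT and by 3.50 on the log2 scale in Lcn2-/- livers. Lcn13 (Obp2a in RefSeq), an odorant-binding lipocalin, fell by 4.23 and 4.61. Meig1, a gene of spermatogenesis, fell by 3.45 in WT livers, where 1 of 5 CCl4 arrays was well above background, and in Lcn2-/- livers the same probe differed by -2.17 and was not called, while its second probe lay at least 2.62-fold and at least 1.97-fold lower. Gm13997 fell by 2.93 in WT and fell by 2.11 in Lcn2-/- livers, with 1 CCl4 array of each genotype well above background, and the transcript ENSMUST00000109326 fell by 2.89 and fell by 2.57. Pak7, a kinase of the p21-activated family, fell at least 1.74-fold in Lcn2-/- livers, from a signal seen on 1 control array, and this call was also lost with normexp background correction, in the deposited table and without Lcn2-/- control 2 (adjusted p from limma up to 0.83 over these fits and the slide block). Among the members that rose was Wt1, a transcription factor of mesothelial cells, at 3.57 and 3.05. Mdk, the heparin-binding growth factor midkine, rose by 3.32 in WT (adjusted p = 3.3e-08) and 2.66 in Lcn2-/- livers (adjusted p = 8.9e-07) at one probe, and by 1.01 and 0.88 at the other. Cpxm1, a secreted carboxypeptidase relative, rose by 3.20 and 3.38. Ccdc3 rose by 3.35 and 3.17, with 2 of 4 WT and 1 of 3 Lcn2-/- control arrays well above background. Its Lcn2-/- call was lost without Lcn2-/- control 1 or 2 (adjusted p from limma up to 0.079). Over the fits that left out 1 array, its Lcn2-/- value ran from 2.59 to 4.26. The homeobox gene Prrx2 rose at least 1.40-fold in Lcn2-/- livers and by 3.36 in WT livers, where 1 of 4 control arrays was well above background. Gm14461, the receptor gene Gpr176 and the lipocalin gene Lcn8 were dark in all controls and lay at least 4.03-fold, 4.66-fold and 2.19-fold higher after CCl4 in WT and at least 2.06-fold, 1.82-fold and 2.63-fold higher in Lcn2-/- livers. They became members only through the CCl4 arrays, and the second Meig1 probe only through the controls, so these bounds are a description. The values given for Meig1 and Prrx2 in WT livers and for Gm13997 and Ccdc3 are fits against groups with several arrays not well above background. The size of these changes is therefore uncertain. Of the members, 55 were seen in CCl4 livers alone and 6 in controls alone.

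Within 1 Mb of Lcn2, where no genotype call was made, CCl4 changed 5 of the 62 members in WT (8.06%, against 15% of all probes) and 7 in Lcn2-/- livers (11.3%, against 11.1%). Ak1, an adenylate kinase, rose by 2.14 and 1.98, Angptl2, a secreted angiopoietin-like protein, by 1.84 and 1.70, and Ass1, the argininosuccinate synthase of the urea cycle, by 0.48 and 0.54 at one probe, while its other probe differed by 0.21 and 0.22 and was not called. Ttc16 fell by 1.09 and 1.01 and Lrsam1, a ubiquitin ligase, by 0.65 and 0.73 at 1 of its 3 probes, the others differing by -0.05 to -0.15. Lamc3, a laminin chain, rose by 1.73 and St6galnac4, a sialyltransferase, fell by 0.74 in Lcn2-/- livers at 1 probe, while its other probe differed by 1.01 there and was not called. The difference between genotypes in these responses was not called.

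The gene lists on chromosome 2 were read the same way. Of 30 genes of matrix, adhesion and vessels, 25 were measured at 28 probes. Adamtsl2 and Mmp24 were called lower in Lcn2-/- livers in both treatments (2 of 28, where 0.279% and 0.26% of all probes were) and no probe higher, with list medians of -0.38 and -0.35 beside -0.01 and 0.00 over all probes. CCl4 raised 11 of these probes in WT (39.3%, against 7.34% of all probes) and 11 in Lcn2-/- livers (39.3%, against 6.16%) and lowered 1 in the latter, that of Sdc4. Itga8, an integrin chain of stellate cells and fibroblasts, rose by 2.58 and 2.51, the matrix protein Thbs1 by 2.27 and 2.34, and the Wnt antagonist Frzb by 1.97 and 2.11. Fibrillin 1 (Fbn1) rose by 1.70 and 2.15 and Col5a1 by 1.44 and 1.67. Fap and Mmp9 were called in WT alone and Bmp7 and Lamc3 in Lcn2-/- livers alone, and no interaction was called. The sums of stellate cell markers ran from 16.7 to 17.2 in WT controls and 17.0 to 17.8 under CCl4, and from 16.6 to 16.9 and 17.2 to 17.6 in Lcn2-/- livers, and their part in these values was not tested.

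Of 36 genes of hepatocyte metabolism, 35 were measured at 45 probes. Genotype called Pdk1 in controls, and Pdk1 and 1 of the 3 Ahcy probes under CCl4, all higher. That is 1 and 2 of 45, where 0.206% and 0.264% of all probes were called higher. The list medians were 0.04 and 0.05. CCl4 raised 4 probes in WT (8.89%, against 7.34% of all probes) and 5 in Lcn2-/- livers (11.1%, against 6.16%), led by Dhrs9, a short-chain dehydrogenase, which rose by 2.86 in WT and at least 2.74-fold in Lcn2-/- livers. Of 36 genes of immunity, complement and coagulation, 34 were measured at 45 probes, with medians of -0.03 and -0.14. limma called 0 of them by genotype, with 4 in controls and 5 under CCl4 at an unadjusted p under 0.05, near the share over all probes. The endothelial genes Cd93 and Thbd and the protease inhibitor Cst3 rose in both responses, by 0.51 to 1.06 in WT, and Cd59b, a complement inhibitor, fell in Lcn2-/- livers. These made 6.67% and 8.89% of the list's probes, below the 15% and 11.1% called over all probes. Of 14 genes of the ribosome, proteasome and translation, 13 were measured at 21 probes, with medians of 0.03 and -0.08. limma called 0 by genotype, and 0 reached an unadjusted p under 0.05. CCl4 lowered Psma7 and 1 of the 4 Rpl7a probes in Lcn2-/- livers (9.52%, against 4.93% of all probes). None of the 9 Hoxd genes was a member. Of 286 olfactory receptor genes of chromosome 2 on the array, 34 were measured at 35 probes, and genotype called 5 of the 35 in controls (0.206% of all probes were called higher) and 4 under CCl4 (0.264%), all higher. These 5 probes were well above background on Lcn2-/- arrays alone and entered through them, so the count is read no further. The list medians were -0.08 and 0.11. CCl4 lowered 9 of the 35 in WT livers, led by Olfr1148 at -1.71, and lowered 4 and raised 1 in Lcn2-/- livers. Of all probes, 7.65% were lowered in WT and 4.93% in Lcn2-/- livers. Among the 4, Olfr1317 entered only through the Lcn2-/- controls where it was high, so these counts too are read no further.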

How the data were processed

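Liver RNA of 16 mice was labelled with Cy3 and hybridised to Agilent 1-colour mouse arrays, 1 array per sample. The authors deposited 1 scanner file per array, whose spot values are intensity on a linear scale per the file headers, not normalized between arrays. A second table that the authors deposited, of log2 values for these arrays, was used as an alternative and correlated with the scanner values within each array, with a lowest r of 0.996. Control spots (3671 of 62976) and spots marked as outliers were left out, log2 of the processed signal of 59305 spots was quantile normalized as the study's methods name, and spots of a probe were averaged to 55681 probes, less 121 that lacked a usable spot somewhere. The filter kept probes detected above background on 3 or more arrays. The depth is signal over background, with a 75th percentile of 842 to 2067, and the number of arrays limits the precision. limma 3.58.1 (R 4.3.3), first tested on simulated data, fitted 1 model over the 4 groups, with Benjamini-Hochberg adjustment over 33014 probes for each of 5 contrasts. The labels do not say how animals were housed or processed, and p-values measure the spread between these samples.

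The members and gene lists were chosen with earlier results of these data known. Named are members called in both genotype comparisons whose groups do not overlap, members within 1 Mb of Lcn2, members detected in all arrays of 1 genotype and none of the other, genes with probes called in opposite directions, the 6 most raised and 6 most lowered members of each CCl4 response, members called for the interaction, and called members of the lists. The members called in 1 genotype comparison, the distal stretch and the limits of the stretches were added after their values were seen. Names in RefSeq come through accessions in a table of assembly GRCm38, used for names alone, which matched 1568 members (75.8%). The placement of probes within exons was not analysed here. Same-numbered control arrays, which also share a column of the slide, deviated together (r = 0.20, 0.38 and 0.52), whereas the CCl4 arrays did not (r = -0.01, 0.27, 0.01 and -0.25). Alternatives changed the scaling, the background correction, the filter, the slide and replicate blocks, the array weights, the rows of spots, the probes per gene and the bins, and left out each array in turn. The 2 control arrays numbered 3 were also left out together, an alternative chosen after seeing the data.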

Additional observations from a re-analysis of the deposited data

Results flagged for a closer look

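In the 33 probes called by genotype in either treatment, 99 groups of 4 or 5 arrays were examined for an array standing apart. The cutoff is passed by about 1 in 20 groups when they are independent and normally distributed. These probes were chosen by their calls, share arrays and include dim ones, so that rate is no yardstick here. Such arrays were found in 9 groups (9.09%). In WT controls these were Adamtsl2 on array 2, at 7.54, and the first Olfr1036 probe on array 1, at 3.43. Under CCl4 they were, in WT livers, Coq4 at 12.10, LOC100046877 at 10.63 and Crnkl1 at 8.77, all 3 on array 5, E030042O20Rik at 2.93 on array 2, and the second Olfr1036 probe at 5.25 on array 1. In Lcn2-/- CCl4 livers Ccbl1 stood apart at 16.09 on array 1 and Pdk1 at 13.02 on array 2. Each of these values left the genotypes apart in that treatment.

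limma's interaction term was called for Nxph2, with a fitted value of -3.55 on the log2 scale, and for Olfr1317, with -5.13. Both probes lie in the top rows of the array and were well above background in Lcn2-/- controls alone, the arrays through which they passed the detection filter, so both values are fits against arrays at the floor and a description, and the fall in Lcn2-/- livers is known only as the bounds given above.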

How the results depend on the processing

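Counts below are of called members, in the order controls, CCl4, interaction, WT response and Lcn2-/- response, with 21, 28, 2, 275 and 229 as reported. Array weights gave 123 (61 higher, 62 lower, against 14 and 7 as reported) and 53 (28 and 25, against 20 and 8) by genotype and 473 and 503 for the responses. In that fit 5.95% and 2.56% of members were called by genotype, against 4.22% and 1.22% of all probes. For the responses it called 22.9% and 24.3% of members, against 26.1% and 25.7% of all probes. Without both control arrays numbered 3 the controls gave 8 higher and 9 lower. The replicate block gave 10, 17 and 1, left 4 bins with a probe called in both (10 as reported), and left the responses not estimable. Slide as a block gave 88 and 32 for the responses. The interaction count was 1 under 75th percentile scaling and in the deposited table, and 0 without the top 20 rows, where the bin count stayed at 10. With 75th percentile scaling 6 bins held a probe called in both. Leaving out 1 array gave 14 (without WT control 4) to 21 in controls and 20 (without WT CCl4 2) to 32 under CCl4. It gave 1 (without Lcn2-/- control 1) to 3 for the interaction, and 153 (without WT control 1; 160 without WT control 2) to 337 for the WT response. For the Lcn2-/- response it gave 126 (without Lcn2-/- control 2, and 138 without Lcn2-/- control 1) to 247. The bins ran from 6 (without WT control 4, Lcn2-/- control 1 or Lcn2-/- control 3) to 10. In the fits named first, the lowest counts were 0.677% of members in controls, 0.967% under CCl4, and 7.4% and 6.09% for the WT and Lcn2-/- responses. Over all probes those fits called 0.36%, 0.285%, 8.94% and 6.05%. Without both control arrays numbered 3, chosen after seeing the data, 1 gene had called probes of opposite direction, Cd44, against 0 as reported. Under CCl4 2 of its probes were called, at -0.98 and 1.12. In controls the first of these was called at -1.42, and the other was at 0.42 and not called. Another Cd44 probe, at -0.25 and -1.97, was not called. With the A_30_P, Lcn2 and Adamts13 probes included, 2538 probes were counted. Of these, 29 and 39 were called by genotype (1.14% and 1.54%, against 0.485% and 0.524% of all probes). The 2 Adamts13 probes were called in opposite directions, at -3.95 and 4.89 in controls and -2.67 and 5.27 under CCl4. The cause of these changes was not tested. Of the 21 calls in controls, 8 passed in every fit run, and 9 passed with the replicate block. The 8 were 4930578N16Rik, Crnkl1, LOC100046877, Nxph2, Olfr1033, the second Olfr1036 probe, Olfr1052 and Olfr1317. Nxph2 and Olfr1317 were not tested without the top 20 rows. Among the 8, the probes of Nxph2 and the olfactory receptors entered only through Lcn2-/- arrays, and 4930578N16Rik only through WT arrays. For these, passing is a description. Of the 28 under CCl4, 11 passed in every fit run, and 12 passed with the replicate block. Among the 11 was E030042O20Rik, which was not tested with the filter of every array of a group. The probes of E030042O20Rik, Olfr1033, Olfr1036 and Olfr1052 in this list entered only through Lcn2-/- arrays, and 4930578N16Rik only through WT arrays. Their passing is a description too. No named genotype value changed sign in any fit. The Nxph2 interaction was lost with 75th percentile scaling, the deposited table, the replicate block, without both control arrays numbered 3 and without Lcn2-/- control 1 (adjusted p from limma 0.051 to 0.42). For dim probes the signal over background limits the size of a difference, often to a bound.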
